A study of Homo sapiens with 6 samples.

Results

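The MYC gene and the gene desert upstream of it were examined as the stretch of chromosome 8 from 127900000 to 128770000 in hg19, which ends before the PVT1 gene begins. Every ATAC-seq peak in that 870 kb stretch was taken, and peaks of different libraries that overlapped or touched were merged into 1 region. This gave 123 peaks in 29 regions, of 56447 regions in the genome. Distances are given from the summit of a region to the start of MYC at 128747680.

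The libraries came from GM12878, a human lymphoblastoid line, which is a B-cell line made by transformation with Epstein-Barr virus. ATAC-seq marks open chromatin, because the Tn5 transposase inserts sequencing adapters where the DNA is accessible. The cells of all 6 libraries were fixed with 1% formaldehyde, transposed, quenched with EDTA and digested with proteinase K while the crosslinks were reversed at high temperature. Each of 3 protocols had 2 replicate libraries. In the old protocol (labelled fixed ATACseq) the buffer for reverse crosslinking held SDS and the DNA was purified before PCR. In the second protocol (fixed ATACseq, new buffer) SDS was left out and the DNA was purified. In the last (MI-ATAC-seq, the bulk form of Pi-ATAC) SDS was left out and the PCR mix was added to the unpurified reaction. All libraries used 1 cell line, and the sources do not say whether the replicates were separate cultures. By the paper's methods the buffers differ in more than SDS. The old one also held EDTA and NaCl, and the new one held the detergents Tween and Igepal. The comparison therefore asks whether the new buffer and the missing purification change which chromatin is found open, and cannot single out SDS. Where 6 values follow each other, they are in the order old purified 1 and 2, new purified 1 and 2, and new unpurified 1 and 2.

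MYC is a transcription factor that pairs with MAX and drives growth and cell division. Its gene lies at the end of a stretch with few protein-coding genes, and the chromatin of that stretch holds enhancers that act on MYC from a distance and differ between cell types. In B cells transformed by Epstein-Barr virus, the viral protein EBNA2 acts through the DNA-binding protein RBPJ and uses distant enhancers upstream of MYC to raise its expression. GENCODE version 44 lists 2 protein-coding genes in the window, MYC and the OCT4-related retrogene POU5F1B, and otherwise long noncoding RNAs and pseudogenes.

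The lists held 30136 to 38023 peaks each and no read totals. Each peak had a fold enrichment, which compares its summit with the background around it, and the −log10 of a Poisson p and of a q. The reads at the summit (the pileup) and the local background, which the peak caller estimates from the reads around the peak, were solved from the fold enrichment and the p. The solution met the deposited −log10 p within 0.001 for 100% of the peaks. The lowest background in a library, 1.51 to 1.86 reads, serves as a measure of relative depth, and backgrounds are given as multiples of it. Among promoters used to check the line, that of the B-cell gene MS4A1 was open in 6 libraries and that of CD79A in 4, while those of CD79B and PAX5 had no region called in more than 1 library. None of the 6 promoters of other lineages (CD3E, CD4, GATA1, HBB, KRT5 and ALB) had a peak.

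The regions fell into 9 groups separated by more than 30 kb. A total of 12 regions were called in all 6 libraries, which is 41.4% of the 29, beside 35.5% of all regions in the genome. A further 5 regions, 17.2%, were called in 1 library only, beside 27.4% of all regions. All 5 came from the new purified replicate 1, which held the most peaks and 22.6% of all regions called in a single library. Without that library 24 regions were left, and 12 of these were called in all 5 others. The matching share over the genome is not given here, so this count cannot be set beside the 35.5%. Repeatable accessibility lay in 4 places: from 556.6 to 525.5 kb upstream, from 447.0 to 427.5 kb upstream, 40.4 kb upstream and at MYC itself. Between the second of these and the regions near 185 kb upstream, a stretch of 242 kb held no region called in more than 1 library. That stretch includes POU5F1B and the noncoding RNA gene CCAT2.

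**Figure D1:**
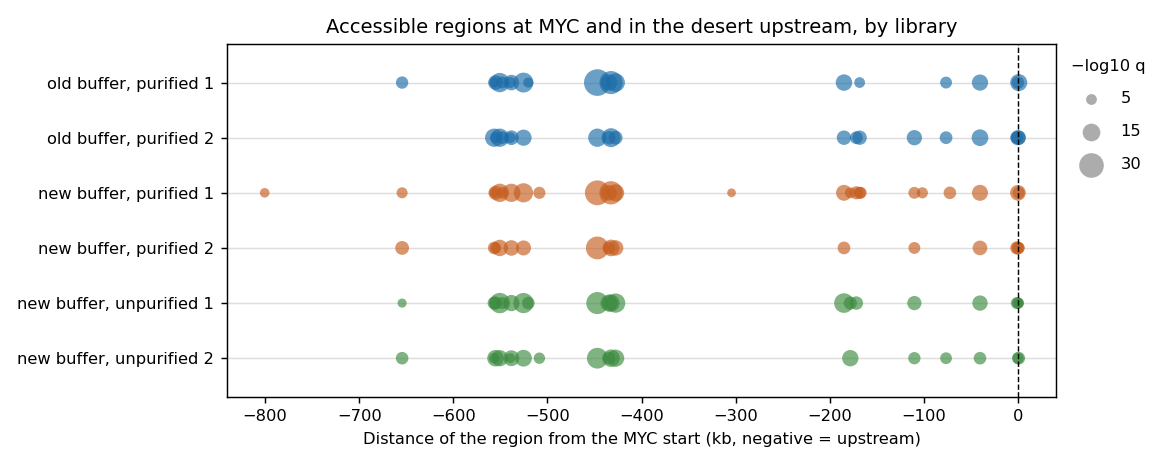
Each row is a library and each disc a region called there, placed by its distance from the MYC start in kb (negative values are upstream), with the area of the disc growing with −log10 q. The 4 regions between 447.0 and 427.5 kb upstream and the region 40.4 kb upstream have discs in all 6 rows, as do 5 of the 9 regions between 556.6 and 508.6 kb upstream and 2 of the 3 at MYC, and the isolated discs 800.5 and 304.4 kb upstream are in the new purified replicate 1 alone.

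The strongest region of the window lay in the second of these places. It was 447.0 kb upstream (chr8:128300201-128300979, in an intron of the long noncoding RNA gene PCAT1 as GENCODE draws it). Its summit held 48, 28, 43, 38, 37 and 35 reads, and the mean −log10 q was 25.4 ± 6.79 (SD, n = 6). Within the 6 lists it ranked 1910, 8065, 3268, 2999, 5320 and 5889 by −log10 q. The old purified libraries held both the best and the poorest of these ranks, so the protocols overlapped. The mean fold enrichment was 9.64 ± 1.44 (SD, n = 6), the highest in the window, over a background of 1.84 ± 0.0886 times the lowest. Of the 20064 regions called in all libraries, 41.9% had a lower mean background than this one.

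The other 3 regions of the place followed nearer to MYC, in introns shared by PCAT1 and CASC8, another noncoding RNA gene. At 434.6 kb upstream (chr8:128312910-128313408) the summit held 33, 28, 33, 25, 36 and 25 reads, and the ranks ran from 12101 to 22092. At 432.5 kb upstream (chr8:128314876-128315509) there were 54, 43, 56, 37, 38 and 38 reads, with ranks from 3997 to 12141. There 3 of the 4 libraries with the new buffer had fewer summit reads than either old library, while new purified 1 had the most. At 427.5 kb upstream (chr8:128319864-128320366) the reads were 33, 24, 33, 26, 35 and 32, with ranks from 8487 to 18149. This was the region nearest to the start of POU5F1B, 14062 bp from it. It was also the only one in the window that held, within 100 bp of its summit, the octamer ATGCAAAT, bound by OCT factors. The outermost annotated start of POU5F1B, to which that distance runs, had no peak.

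The group of neighbours farther upstream held 9 regions over 48.5 kb, from 556.6 to 508.6 kb upstream, all within PCAT1 and the noncoding RNA gene CASC19, and 5 of them were called in every library. The region at 525.5 kb upstream (chr8:128221925-128223220) was the widest of the window at 1296 bp and overlapped an exon of CASC19. It was made of 11 peaks, so that several libraries split it, and the values are those of the peak with the highest q. Its summit held 53, 39, 55, 37, 55 and 44 reads, the highest mean of the window, 47.2 ± 8.21 (SD, n = 6). The ranks by −log10 q were 7527, 11723, 8804, 12815, 7356 and 11562. In each protocol 1 replicate had 53 or 55 reads and the other 37 to 44, and no protocol stood apart. The local background was 5.61 ± 0.733 times the lowest, above that of 97.2% of the regions called everywhere, and the fold enrichment was only 4.66 ± 0.381.

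The region at 550.6 kb upstream (chr8:128196432-128197317, also at a CASC19 exon) was similar in strength, with 46, 44, 46, 38, 50 and 39 reads and ranks from 7129 to 12617. The region at 538.3 kb upstream (chr8:128209000-128209565) had fewer reads, 22, 20, 27, 23, 25 and 24, but a background of only 1.61 ± 0.131 times the lowest. Its ranks, 10343 to 15768, were close together, and its GC content of 55.2% was the highest outside MYC. At 555.2 kb upstream (chr8:128192179-128192746) the reads were 33, 26, 33, 25, 31 and 39 and the ranks 12127 to 28039.

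The region at 556.6 kb upstream (chr8:128190813-128191228) was the least even of those called everywhere. It had 17, 35, 18, 21, 24 and 21 reads, and its −log10 q was 16.0 in old purified 2 but 4.05 to 7.77 in the other 5 libraries. The rank by −log10 q was 8140 in old purified 2 and 19329 to 36077 elsewhere. The difference lay between replicates of 1 protocol, and 1 library set it.

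The remaining 4 regions of this group were weaker. The region at 547.9 kb (chr8:128199632-128200062) was called in 4 libraries with 25 or 26 reads and ranks of 22747 to 29863. The region at 520.4 kb (chr8:128227216-128227690) was called in old purified 1 and new unpurified 1, with 21 and 28 reads and ranks of 35470 and 24436. The region at 508.6 kb (chr8:128238986-128239292) was called in new purified 1 and new unpurified 2, with 18 and 14 reads and ranks of 26833 and 27240. The last of these lay 494 bp from the outermost annotated start of CASC19. No peak covered that start itself, but the region lay within the 1 kb that counted as a promoter for protein-coding genes. The region at 539.5 kb is described with the protocols.

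Nearer to MYC, 1 region of the desert was called in every library. It lay 40.4 kb upstream (chr8:128707057-128707648) in an intron of CASC11, the noncoding RNA gene on the strand opposite to MYC. Its summit held 29, 27, 26, 24, 29 and 20 reads, with ranks of 14097, 10765, 14830, 13656, 16064 and 22370. New unpurified 2 was lowest, and the mean fold enrichment was 5.62 ± 0.662 (SD, n = 6).

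None of the 9 regions between 185 and 72 kb upstream was called in all 6 libraries. The strongest lay 184.9 kb upstream (chr8:128562449-128563199), outside any annotated gene. It held 22, 18, 22, 15 and 28 reads, in order, and was missing from new unpurified 2 alone. Its mean fold enrichment of 7.14 ± 1.23 (SD, n = 5) was exceeded only at 447.0 kb, and its background was 1.27 times the lowest. The region at 110.1 kb (chr8:128637446-128637882, in an intron of the noncoding gene ENSG00000286266) was missing from old purified 1 alone, with 13 to 18 reads and ranks of 13930 to 27616. At 171.8 kb (chr8:128575754-128576104) a region was called in 1 library of each protocol, with 26, 27 and 28 reads and ranks of 21534 to 22965. A library without a call has no listed value, and a missing call does not show that the site was closed.

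The 5 regions found in new purified 1 alone lay in the lower part of its list. They lay 800.5 kb (chr8:127947001-127947200), 304.4 kb (chr8:128443207-128443425), 167.1 kb (chr8:128580415-128580732), 101.6 kb (chr8:128645919-128646128) and 72.4 kb upstream (chr8:128675140-128675390). Their summits held 11, 9, 23, 12 and 19 reads, and their ranks were 36608, 37768, 28253, 30887 and 25180 of 38023 peaks. The region at 304.4 kb was the nearest to the starts of CASC8 and CCAT2, but lay 50959 and 30563 bp from them. The outermost annotated starts of these genes therefore had no peak in any library. The start of PCAT1 lies outside the window, and peaks around it were not examined. Within the window the region at 800.5 kb was the nearest to that start, 378433 bp from it. Between the region at 800.5 kb and the next one lay the longest stretch without any region, 145.9 kb. The next region, 654.4 kb upstream (chr8:128093066-128093491) and 947 bp inside PRNCR1, was missing from old purified 2. It held 15, 13, 16, 10 and 15 reads in the other libraries, in order, with ranks of 15780 to 35982.

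At MYC itself 2 regions were called in every library. The first (chr8:128747346-128747793) spanned the start, with its summit 59 bp upstream of it. Its summit held 33, 37, 41, 31, 32 and 29 reads, and its ranks by −log10 q were 25430, 13961, 15457, 18156, 28348 and 26674. The second (chr8:128748073-128748676) had its summit 785 bp downstream of the start, at an annotated exon of MYC. It was also the nearest to the outermost annotated start of CASC11, 2557 bp away. Its summit held 45, 35, 33, 29, 30 and 32 reads, and its ranks were 12316, 16399, 26547, 21787, 33021 and 21929. Both old libraries ranked the second region above all 4 libraries with the new buffer, whereas the ranks of the first overlapped between protocols. Another region, 1.23 kb upstream of the start (chr8:128746296-128746583), was called in 1 library of each protocol. These were old purified 2, new purified 2 and new unpurified 1, with 30, 31 and 32 reads and ranks of 23269, 17714 and 27181. In bulk libraries, fewer cells with an open site and less frequent opening in each cell cannot be told apart.

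The MYC promoter ranked low or high depending on the measure. Among all peaks of a library, the region at the start lay at the mean percentile 39.3 ± 17.1 by −log10 q and 76.8 ± 6.87 by summit reads (SD, n = 6). Among the 12910 regions within 1 kb of a protein-coding start, it lay at percentile 22.3 ± 12.4 by −log10 q, 3.02 ± 2.64 by fold enrichment and 57.1 ± 9.93 by summit reads. The second region gave 21.4 ± 15.3, 3.15 ± 3.87 and 57.2 ± 11.3. In all 6 libraries the summit reads put both regions higher than the fold enrichment did. The local background at the 2 regions was 5.19 ± 0.484 and 5.32 ± 0.517 times the lowest, above that of 96.1% and 96.5% of the regions called everywhere. The median over promoter regions called everywhere was 2.36. A high background enters the fold enrichment as its divisor.

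**Figure D2:**
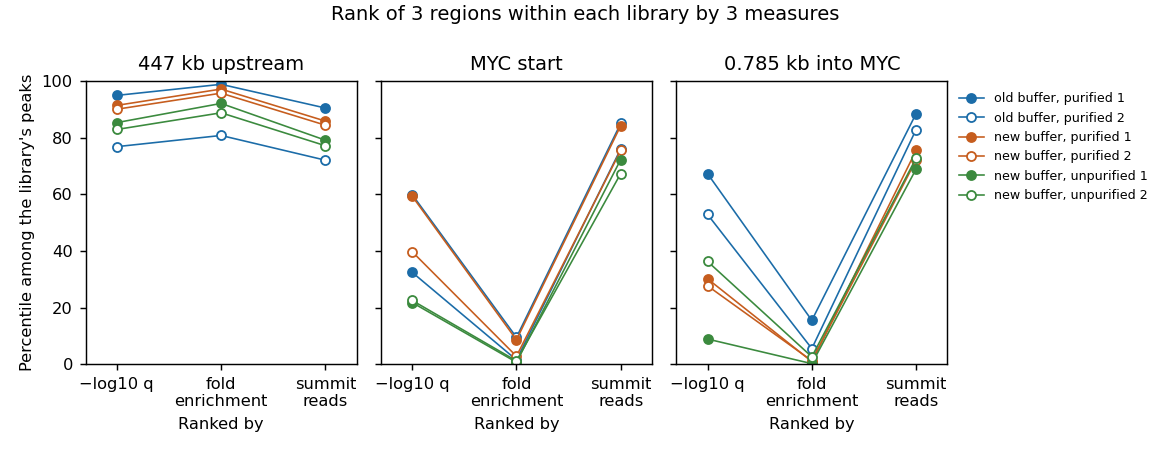
For 3 regions, the percentile among all peaks of the same library (100 is strongest) is plotted by −log10 q, fold enrichment and summit reads, with 1 line per library. Both regions at MYC drop to low percentiles by fold enrichment and lie above 67 by summit reads in every library, whereas the region 447 kb upstream stays above 72 by all 3 measures.

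The partners and relatives of MYC were compared by their promoters. Of the 12 genes of the network, 10 had a promoter region called in all 6 libraries, MYC included, beside 45.5% of all 19807 protein-coding genes. The promoter of MAX, the obligate partner, had 48.2 ± 4.26 summit reads and lay at the mean percentile 91.0 by −log10 q. That of MXD1, which competes with MYC for MAX, had 74.7 ± 6.09 reads and the percentile 97.8, the highest of the list. The others called everywhere, MXD3, MXD4, MXI1, MNT, MGA, MLX and MLXIP, lay between 38.9 (MLX) and 94.4 (MXD4). The paralogues MYCN and MYCL, which are used in other tissues, had a promoter region in 1 and 3 libraries, with 17 summit reads for MYCN and a mean of 14.3 for MYCL.

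The window was rich in peaks for a stretch with so few protein-coding genes. It held 20, 21, 26, 17, 21 and 18 peaks, while 1077 other windows of the same length with up to 2 protein-coding genes had medians of 5 to 7. Between 7 and 28 of those windows held more peaks, depending on the library. The excess over the median was 14.3 ± 2.66 peaks (SD, n = 6) and was seen in 6 of 6 libraries. The exact two-sided sign-flip test over libraries gave p = 0.03125, the smallest that 6 libraries allow, and 0.09375 after adjustment over 3 comparisons, so the call did not pass at 0.05. Between 50% and 76.5% of the window's peaks lay in regions called in all libraries, beside 54.6% to 69.2% of peaks elsewhere. The mean difference was 4.11 percentage points (exact sign-flip p = 0.09375, adjusted 0.125). It was 0.155 with an equal number of peaks per list, 0.214 for the desert without MYC and -1.17 without new purified 2.

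By −log10 q the median peak of the window lay at percentiles 55.1, 53.6, 36.7, 41.2, 40.4 and 36.1 of the 6 lists. Both old libraries lay above the middle of their list and all 4 libraries with the new buffer below it. This split between buffers was noticed in the values and was not tested. The mean difference from the rest of the genome was -6.15 (exact sign-flip p = 0.125, adjusted 0.125), and -1.92 for the desert without MYC (exact sign-flip p = 0.625). The direction depended on the measure. Ranked by fold enrichment the difference was -24.8, and ranked by summit reads it was 17.0, in each case with the exact p at its smallest, 0.03125, and an adjusted p of 0.0469. Each measure in turn replaced −log10 q among the 3 comparisons, so the measures tried were not adjusted together. The 0.0469 is below the adjusted sign-flip p of peak number, 0.09375, only because each measure tied with peak number at the smallest p. The window's peaks had more summit reads than other peaks, with medians of 25 to 31 beside 20 to 22, and smaller fold enrichments, with medians of 4.66 to 5.08 beside 5.59 to 5.84. They were also narrower, at 381 to 441 bp on average beside 432 to 480 bp.

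The local background was solved from the fold enrichment and p of the same peaks. More summit reads with smaller fold enrichments largely imply a higher background, so its test is not separate evidence. In the window the median background was 2.94, 3.69, 3.003, 3.63, 3.38 and 2.15 times the lowest of the library, beside 1.63 to 1.74 elsewhere. The difference of 1.46 had the same sign in 6 of 6 libraries (exact sign-flip p = 0.03125, the smallest possible, and 0.0625 adjusted over all 4 comparisons with the rest of the genome). The ratio was 1.87 ± 0.331 (SD, n = 6). This comparison was added after the values had been seen. High background was not spread evenly over the window. It was highest at MYC and 525.5 kb upstream, and was no more than 1.99 times the lowest on average in all 4 regions from 110 to 72 kb upstream. Its part in the ranks was not tested.

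**Figure D3:**
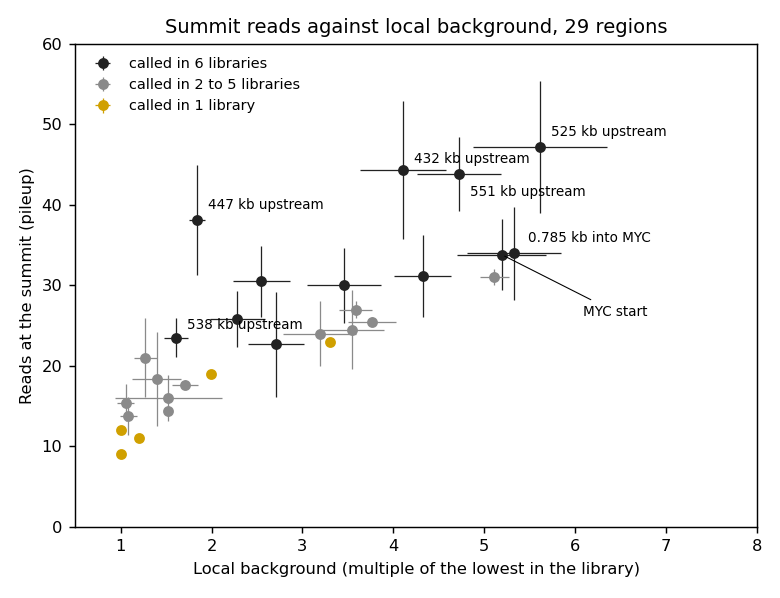
Mean reads at the summit are plotted against the mean local background (a multiple of the lowest in the library) for the 29 regions, with bars of 1 SD over the libraries that called the region and no bars for regions of 1 library. The region 447 kb upstream stands at 38.2 reads over a background of 1.84, and the MYC start at 33.8 reads over 5.19.

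**Figure D4:**
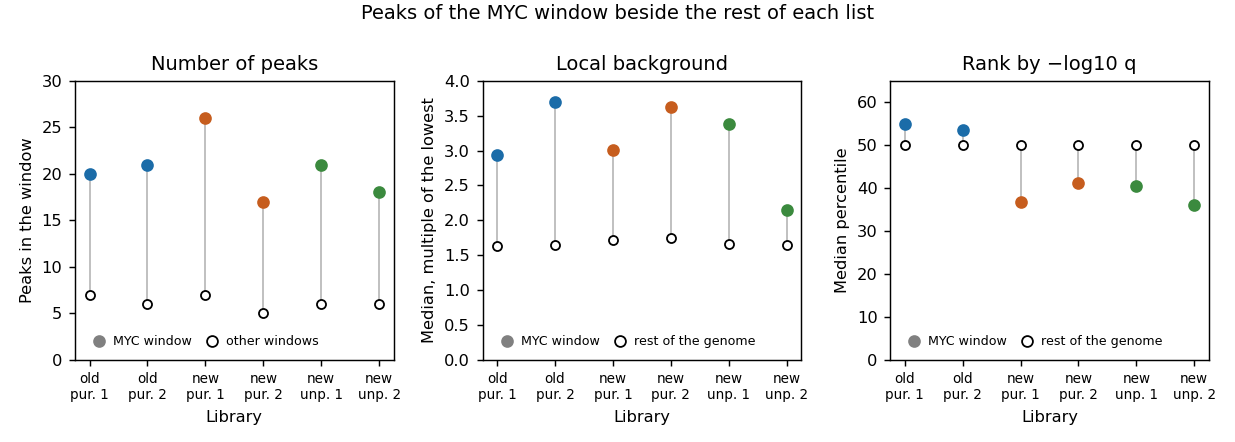
For each library, filled points give the MYC window and open points its comparison: the number of peaks beside the median of 1077 other gene-poor windows, the median local background and the median percentile by −log10 q beside the rest of the genome. Peak number and background are above the open points in 6 of 6 libraries, while the percentile is above only in the 2 old purified libraries.

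No difference between protocols was detected in how much of the window was called. The old purified libraries had 20.5 ± 0.707 peaks, the new purified 21.5 ± 6.36 and the new unpurified 19.5 ± 2.12 (SD, n = 2 each). The peaks covered 7.67 and 8.38 kb, 9.91 and 7.05 kb, and 8.72 and 7.94 kb. The 6 comparisons of peak number and covered length gave exact two-sided permutation p-values of 0.667 to 1 and adjusted values of 1, and 2 libraries against 2 cannot go below 0.33. New purified 1 set the sign of the differences that involve its protocol: without it the difference in peak number between new purified and old was -3.5, as against 1 with it. Nor did lists made by the same protocol overlap more than others. The share of covered bases in common (the Jaccard index) was 0.557 on average for the 3 replicate pairs and 0.590 for the 12 other pairs (exact one-sided permutation p = 1 over 15 pairings, where 0.0667 is the smallest).

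A total of 4 regions appeared in both replicates of a protocol while another protocol lacked them. The region 178.2 kb upstream (chr8:128569320-128569751) was called in both new unpurified libraries and in neither old library, where 2.4% of the regions called by either protocol show that pattern. It held 16 and 25 reads there, with ranks of 22491 and 12525, and 14 reads in new purified 1, with rank 33068. The regions at 539.5 kb (chr8:128208123-128208384) and 76.4 kb (chr8:128671176-128671525) were called in both old and neither new purified library, beside 3.2% of regions. The first held 15, 14 and 14 reads in old purified 1 and 2 and new unpurified 2, with ranks of 32684, 30204 and 32728. The second held 18, 18 and 17 reads in the same libraries, with ranks of 28721, 21742 and 25877. The region at 168.3 kb (chr8:128579312-128579575) was called in both old libraries and in neither new unpurified one, beside 2.82% of regions. It held 20, 28 and 24 reads in old purified 1 and 2 and new purified 1, with ranks of 33206, 16310 and 27001. Each of the 4 was thus also called in 1 library of the remaining protocol.

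The other 3 patterns had no region in the window. These were both new purified and neither old (1.83% of regions in the genome), both new unpurified and neither new purified (2.7%), and both new purified and neither new unpurified (1.76%). Counts of 0 to 2 among the 24 or 29 regions that could show a pattern are too small to be set apart from these shares.

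Fold enrichment was tested with limma on log2 values over the 20064 regions called in every library, 12 of them in the window. The 17 regions of the window missing from at least 1 library, including those of the patterns above, could not enter. The test therefore says nothing about regions called under 1 protocol and not another. By Benjamini-Hochberg adjusted p at 0.05, limma called 0 of the 12 in each of the 3 contrasts, beside 0% of all regions. At an unadjusted p of 0.05 it called 0 of the 12 in each contrast. Over the genome it called 1376 (6.86%, new purified against old), 1309 (6.52%, new unpurified against old) and 961 (4.79%, new unpurified against new purified). A count of 0 among 12 regions cannot be set apart from these shares. The members' median log2 difference was -0.08, -0.06 and -0.03 in these contrasts, beside 0.00 over all regions tested. Centring each library on its median holds the latter near 0 in advance. The largest difference in the window was at the second MYC region, which was lower in the new unpurified than in the old purified libraries by a log2 difference of -0.38 ± 0.19 (SE, limma adjusted p = 0.773, 95% interval -0.78 to 0.01). In the new purified libraries it differed from the old ones by -0.33 ± 0.19 (SE, limma adjusted p = 0.791). The contrasts with the old buffer share the old libraries. At the MYC start the differences from the old libraries were 0.04 ± 0.18 and -0.24 ± 0.18 (SE), and at 447.0 kb upstream 0.13 ± 0.19 and -0.08 ± 0.19. The intervals of the 12 regions reached from -0.78 to 0.60 over the 3 contrasts, so log2 differences of that size remain possible with 2 libraries per protocol.

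**Figure D5:**
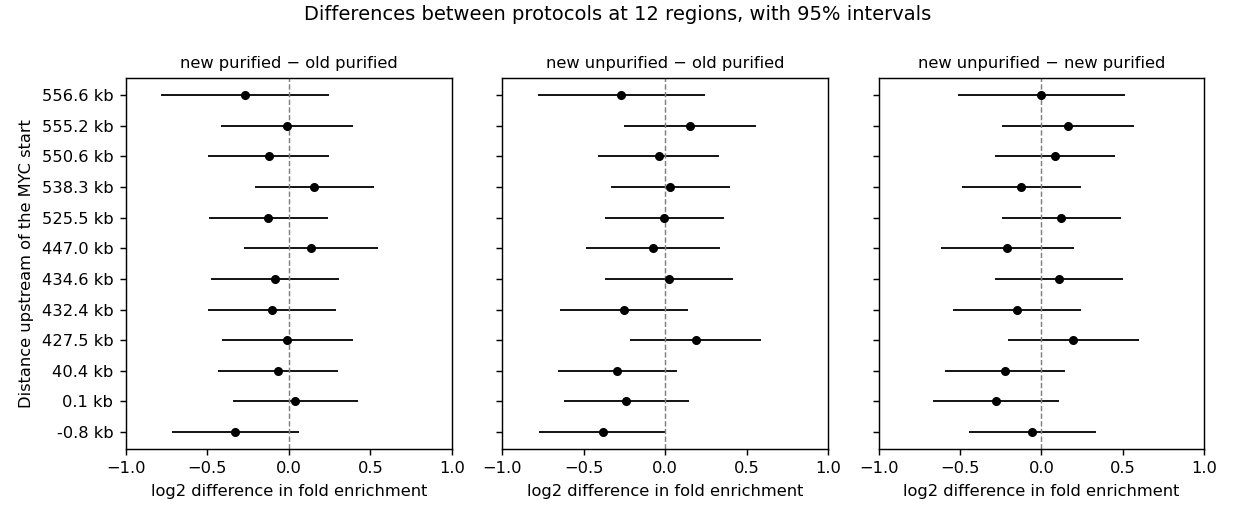
Points give the log2 difference in fold enrichment between protocols at the 12 regions called in every library, from the farthest upstream (top) to MYC (bottom, where negative distances are downstream of the start), with bars for the 95% interval from limma. All 36 intervals include 0.

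Where all 6 libraries called a region, their summits spread over 135 to 283 bp, with a median of 151 bp, a spread that the merging of overlapping peaks itself limits. Away from the MYC promoter, GC content ranged from 34.3% to 55.2% with a median of 43.3%. This was close to the 44.3% of all 43537 regions away from promoters, those of the window included. The median ratio of observed to expected CpG was 0.11 beside 0.192. The 2 MYC promoter regions had 53.7% and 62.7% GC, beside a median of 67.7% over promoter regions.

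Short letter patterns of B-cell and enhancer factors were searched on both strands within 100 bp of each summit, as a description of the letters alone. The RBPJ core TGGGAA was found in 5 of 29 regions (16% of all regions in the genome, 16.7% of those away from promoters). They lay 539.5, 538.3, 525.5, 447.0 and 167.1 kb upstream. Of these, the region at 539.5 kb was called in 3 libraries and that at 167.1 kb in 1. The AP-1 pattern TGANTCA was found in 6 (14.3% of all, 17.4% of those away from promoters). These were the regions at 434.6 and 40.4 kb, called in all 6 libraries, and 4 regions between 172 and 110 kb upstream, called in 1 to 5. The RUNX pattern TGTGGT was found in 10 (22.8% of all, 27.1% of those away from promoters). Of these 10, only the region at 538.3 kb was called in all 6 libraries, and those at 800.5, 304.4, 167.1 and 101.6 kb in 1 each. The ETS and PU.1 pattern GAGGAA was found in 5 (19% of all, 19.4% of those away from promoters). The CTCF core AGGGGGC was found once (6.73% of all), in the region 1.23 kb upstream of MYC. The octamer named above is present in 2.5% of all regions. The IRF repeat was found once, 520.4 kb upstream (6.82% of all). The NF-kB pattern GGGNNTTCC and the EBF palindrome, present in 6.86% and 0.877% of all regions, were in none of these windows.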

How the data were processed

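The 6 deposited lists, 1 per library, were used. Trimmed reads were aligned by the authors to hg19 (Bowtie2 2.1.0), filtered for pairing and mapping quality, freed of duplicates (Picard 1.79) and passed to MACS2, whose version is not given in the sources used here, for narrow peaks. Deposited columns hold a score, a fold enrichment (a ratio), and −log10 p and −log10 q values, and the largest q-value was 0.00974. All peaks lay within the chromosomes of GRCh37, the build of hg19 and of the GENCODE annotation used. The window, its gene lists and its tests were chosen with earlier results of these data known.

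From there, peaks that overlapped by 1 bp or adjoined were merged, and the peak with the highest −log10 q stood for a library in a region. Ranks and percentiles were set within each list. Groups and replicate numbers came from the labels. Summit pileup and background were solved from fold enrichment and p. Depth is known only relatively, from the lowest background of a library, and summit reads limit how precise a peak's values are. Protocols were compared by exact permutation tests over libraries and by limma 3.58.1 (R 4.3.3) on log2 fold enrichment centred on the median of each library, adjusted over all regions tested. The window was compared with other windows by exact sign-flip tests over libraries. The p-values measure only the spread between these libraries, which may be technical.

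The text gives every region, with values in each library for those at MYC, the 10 desert regions called in all 6 libraries, those found in both replicates of a protocol but in neither of another, and those nearest to the listed gene starts. PCAT2, CCAT1 and CASC21 were not matched. For distances to the listed genes, the start was the outermost end of the annotated gene, and starts of other transcripts were not examined. The grouping at gaps of 30 kb and the comparison of local background were added after the data were examined. Alternatives were a −log10 q of at least 5, an equal number of 30136 peaks per list, the desert without MYC and the 1 kb upstream, merging across 200 bp, other ranks and gene limits, other limma settings, a replicate block and each library left out. Scripts were tested on simulated data and checked against bedtools 2.31.1. Values were computed in Python 3.11.15 with pandas 2.3.3, SciPy 1.17.1 and NumPy 2.4.6 and drawn with matplotlib 3.10.9. Genomic sequence is not printed, 1 marker promoter is not reported here, and no library was compared as reads.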

Additional observations from a re-analysis of the deposited data

How the results depend on the processing

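Of the alternatives, 196 values kept their direction and their side of the threshold or moved by less than the spread between replicates, 13 reversed, 11 moved and 1 became stronger. The cause was not tested for any of them. Many of the 196 could not have come out otherwise, so their number does not measure robustness. The tests of 2 libraries against 2 cannot go below 0.33 and so cannot cross the threshold. Leaving out a library of another protocol, or adding a replicate block, left the differences between 2 protocols in peaks and covered length unchanged. Ranked by fold enrichment in place of −log10 q, the difference in median percentile between the window and the rest was -24.8, and by summit reads 17.0. By the same measures the MYC start lay at percentile 3.02 and 57.1 among promoter regions, as against 22.3 by −log10 q. With only peaks of a −log10 q of at least 5 the difference in the share of peaks called in every library was -0.61, and with an equal number of peaks per list the new unpurified minus new purified covered length was 0.011 kb. With a trend in eBayes limma called 1 region in the genome in each contrast with the old protocol, neither in the window, and the members' median log2 difference between new purified and old was -0.028 with summit pileups.

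With each library left out in turn, the 2 against 2 differences became 2 against 1. The difference in peaks ran from -3.5 to 5.5 for new purified minus old, from -2.5 to 0.5 for new unpurified minus old and from -6.5 to 2.5 for new unpurified minus new purified. Covered length ran from -0.978 to 1.88 kb, from -0.0885 to 0.69 kb and from -1.58 to 1.28 kb in the same contrasts. The share of peaks called in every library ran from -1.17 to 6.76 percentage points (negative without new purified 2), and the overlap of replicate pairs minus other pairs from -0.0774 to 0.00511. The members' median log2 difference ran from -0.168 to -0.0165, from -0.15 to 0.0155 and from -0.0848 to 0.0403, with no region called, and where a protocol was left with 1 library limma assumed that it varies like the others. With 5 libraries the sign-flip test cannot go below 0.0625, so these values say nothing about the calls against the rest of the genome.

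Same-numbered libraries showed no shared deviation (correlations of 0.013, -0.000802 and 0.0149 over 20064 regions). A pairing weaker than the spread of single peaks could go unseen, so the check cannot exclude one. With a replicate block limma again called 0 regions, and the paired differences in peaks were 1, -1 and -2 (exact p = 1). Regions missing from at least 1 library held 9 to 32 summit reads where they were called, and those called in all held 17 to 56, so the ranges overlapped, and the part of depth in missing calls was not tested.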
